A study of Mus musculus with 10 samples.

Results

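Regions of open chromatin that were less accessible in both thymic iNKT1 and iNKT2 cells of SKG mice than in the same subsets of BALB/c mice are described here. They numbered 678 of 94823 regions. ATAC-seq was the assay: a transposase cuts open DNA and leaves adapters there, and these insertions were counted per region. Members were chosen on the measured values: the SKG mean had to be at most 0.5 times the BALB/c mean in iNKT1 and in iNKT2, with both BALB/c means at 2 or more counts scaled per library (CPM) and the BALB/c iNKT2 mean under 3 times the BALB/c iNKT1 mean. CPM are insertions in units of 1 in 1000000 of the library total times its TMM factor, and 0.5 CPM was added to each group mean before a ratio was taken. The limits on the BALB/c levels alone left 45911 regions, called eligible below, of which 1.48% were members. Because the genotype contrasts chose the members, their falls are a description and carry no test.

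The libraries came from thymus and formed 4 groups by their names, with 2 libraries of each genotype for iNKT1 and 3 of each for iNKT2. SKG mice carry a hypomorphic mutation of Zap70 on the BALB/c background, and the BALB/c mice carry the normal gene. By the study's methods the cells were sorted as CD27+ CD122+ (iNKT1) and CD27+ CD122- (iNKT2), and iNKT17 cells were not analysed. By the same methods all mice of the study were aged 8 to 10 weeks. The number of animals behind a library is not given for these samples in the sources used here, so replicates may be technical and spreads and p-values cover only the variation between these libraries.

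Zap70 is the kinase that couples the T cell receptor (TCR) to its downstream signals. These run through calcineurin to the NFAT factors and through Ras and the MAP kinases to AP-1 and the Egr factors. iNKT cells are selected by strong TCR signals on the lipid-presenting molecule CD1d, and Egr2 is among the factors they need. In sorted bulk samples a smaller share of cells with an open region and a weaker signal in every cell cannot be told apart.

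Insertions within the regions totalled 14988590 to 36342635 per library. Summed CPM over the start regions of 4 T and iNKT cell genes were 69.6 to 116 in all libraries. The sum over 4 iNKT1 genes was 258 to 286 in the 4 iNKT1 libraries and 83.2 to 121 in the 6 iNKT2 libraries, with SKG iNKT2 replicate 1 the highest of these. That over 3 iNKT17 genes was 0.485 to 1.16 in iNKT1 and 8.23 to 11.5 in iNKT2 libraries, and none of the 6 double-positive thymocyte, 4 B cell and 4 myeloid genes had a start region in the table. Zap70 itself had 16 regions and none was a member. Its start region, chr1:36761574-36762010, had SKG to BALB/c ratios of 0.993 in iNKT1 and 1.22 in iNKT2, and a mutation that alters the protein is not expected to show in such counts.

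The 100 bases to each side of the centre were read from GRCm38 for 43 of the members that the naming rule picked. Members in UTRs were left out, and so were the picked members near Zfp608 and Nfatc1, so the counts of strings below do not cover them. Of the 43, 12 are printed in 2 sets, all on the + strand, with members that hold no marked string kept in. Capitals mark 3 short strings searched on both strands: TGGAAA, the core bound by NFAT, TGANTCA, the AP-1 site, and GNGTGGGNG, the Egr site. Of the 43 stretches, 32 held at least 1 of these strings and 21 held the NFAT string. In stretches of that length, 16.6% of eligible regions over 1 kb from a start held the NFAT string. The AP-1 string was in 9.14% of them and the Egr string in 8.76%. Many of the 43 came from gene lists chosen with earlier results known, so nothing is read from their counts. A match is a description of the letters and not a bound site. The first set is drawn from the members with the smallest SKG to BALB/c ratios and those with the highest BALB/c levels. It lets the base of the largest values be seen.
Aipl1, chr11:71995997-71996197: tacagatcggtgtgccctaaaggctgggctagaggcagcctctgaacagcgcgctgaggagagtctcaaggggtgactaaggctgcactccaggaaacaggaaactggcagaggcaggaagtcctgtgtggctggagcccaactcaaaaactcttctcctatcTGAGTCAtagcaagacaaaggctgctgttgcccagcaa
Fam19a5, chr15:87074765-87074965: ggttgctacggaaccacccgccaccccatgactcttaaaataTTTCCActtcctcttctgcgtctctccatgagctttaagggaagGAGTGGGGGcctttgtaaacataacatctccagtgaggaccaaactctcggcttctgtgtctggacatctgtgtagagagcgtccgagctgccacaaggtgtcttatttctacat
Rps23, chr13:91041266-91041466: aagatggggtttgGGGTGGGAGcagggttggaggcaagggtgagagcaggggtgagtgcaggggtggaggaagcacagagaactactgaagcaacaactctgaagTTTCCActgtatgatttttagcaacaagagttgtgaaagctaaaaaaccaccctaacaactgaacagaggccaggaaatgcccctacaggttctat
Slc17a6, chr7:51723918-51724118: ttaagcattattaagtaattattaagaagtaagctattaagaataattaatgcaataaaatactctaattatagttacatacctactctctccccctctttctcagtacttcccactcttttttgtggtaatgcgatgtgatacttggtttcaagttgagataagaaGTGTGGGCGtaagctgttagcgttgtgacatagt
Trim52, chr14:106027260-106027460: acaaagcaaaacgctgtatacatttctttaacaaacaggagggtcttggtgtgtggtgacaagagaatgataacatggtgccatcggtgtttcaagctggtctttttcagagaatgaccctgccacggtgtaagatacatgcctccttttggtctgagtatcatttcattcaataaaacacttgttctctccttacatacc

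The second set holds members assigned to genes of the TCR response, the Notch pathway and survival, by the nearest protein-coding start.
Egr2, chr10:67483488-67483688: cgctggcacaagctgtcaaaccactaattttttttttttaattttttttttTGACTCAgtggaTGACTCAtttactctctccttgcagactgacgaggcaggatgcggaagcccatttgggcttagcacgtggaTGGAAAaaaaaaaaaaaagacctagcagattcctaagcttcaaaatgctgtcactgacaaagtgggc
Tox, chr4:6882773-6882973: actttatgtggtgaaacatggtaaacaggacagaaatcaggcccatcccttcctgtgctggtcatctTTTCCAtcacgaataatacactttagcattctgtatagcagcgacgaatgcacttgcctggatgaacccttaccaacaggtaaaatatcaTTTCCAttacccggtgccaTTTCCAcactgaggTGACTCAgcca
Rcan1, chr16:92443715-92443915: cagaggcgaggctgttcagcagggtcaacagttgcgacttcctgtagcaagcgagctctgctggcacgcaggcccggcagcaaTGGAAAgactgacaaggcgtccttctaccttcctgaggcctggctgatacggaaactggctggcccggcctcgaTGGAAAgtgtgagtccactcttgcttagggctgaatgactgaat
Pdcd1, chr1:94053685-94053885: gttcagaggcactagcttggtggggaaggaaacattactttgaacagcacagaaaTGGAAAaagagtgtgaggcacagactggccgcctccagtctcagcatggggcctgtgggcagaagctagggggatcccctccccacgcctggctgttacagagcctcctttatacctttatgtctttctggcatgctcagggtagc
Spry2, chr14:105669093-105669293: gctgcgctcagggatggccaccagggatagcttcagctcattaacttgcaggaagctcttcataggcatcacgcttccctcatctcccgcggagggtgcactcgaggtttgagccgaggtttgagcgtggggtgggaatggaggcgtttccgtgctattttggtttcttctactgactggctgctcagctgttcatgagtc
Jag1, chr2:137236680-137236880: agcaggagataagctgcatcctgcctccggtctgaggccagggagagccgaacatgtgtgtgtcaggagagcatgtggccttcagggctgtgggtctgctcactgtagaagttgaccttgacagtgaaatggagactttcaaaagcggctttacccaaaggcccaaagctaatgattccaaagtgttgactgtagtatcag
Bcl2l11, chr2:128087077-128087277: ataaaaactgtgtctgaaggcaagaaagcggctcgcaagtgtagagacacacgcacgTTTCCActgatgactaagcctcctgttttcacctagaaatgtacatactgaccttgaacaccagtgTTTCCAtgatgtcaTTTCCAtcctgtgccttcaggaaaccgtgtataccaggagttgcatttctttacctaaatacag
The Tox and Bcl2l11 stretches held 3 NFAT strings each and the Rcan1 stretch 2. The Egr2 stretch held 2 AP-1 strings 5′ of its NFAT string, whereas the Trim52, Spry2 and Jag1 stretches held none of the strings.

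The lower level in SKG was present in every library. Summed over the 678 regions, the level was 6250 and 6031 CPM in BALB/c iNKT1 and 1784 and 1900 CPM in SKG iNKT1. In iNKT2 it was 6743, 5483 and 5864 CPM in BALB/c and 1826, 1426 and 1702 CPM in SKG. Every SKG library thus lay below every BALB/c library, as the rule required of the group means. The median log2 ratio was -1.54 in iNKT1 and -1.63 in iNKT2, against -0.01 and 0.13 over eligible regions. The fitted log2 changes, which do not use the constant of 0.5 CPM, had medians of -1.91 (median SE 0.362) and -1.94 (median SE 0.279).

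**Figure D1:**
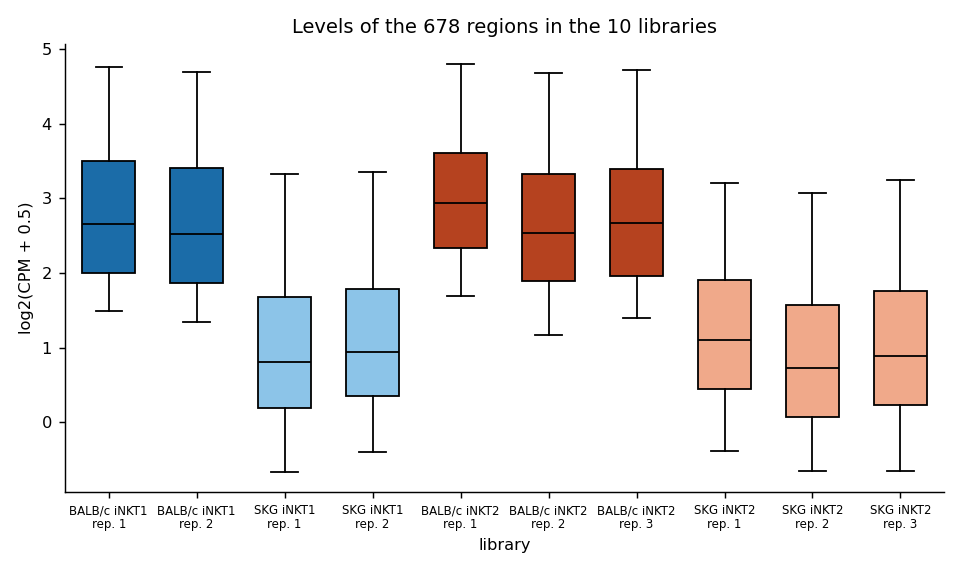
Levels of the 678 regions, as log2(CPM + 0.5), in each of the 10 libraries. Boxes span the quartiles with the median as a line, and whiskers run from the 5th to the 95th percentile. Both SKG groups sit below both BALB/c groups, with group mean levels of median 1.35 and 1.40 CPM in SKG iNKT1 and iNKT2 against 5.45 and 6.13 CPM in BALB/c.

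Single members rarely overlapped between the genotypes, which the limits on the group means made likely, so nothing is read from it. All SKG libraries lay below all BALB/c libraries in iNKT1 for 678 members, in iNKT2 for 668 and in both for 668 (98.5%). Over all regions this held for 29.0% in iNKT1, 21.9% in iNKT2 and 9.18% in both. Members were not devoid of signal in SKG: 649 had at least 1 insertion in every SKG library and none lacked insertions in all 5. The median member held 156 and 189 insertions per library in BALB/c iNKT1 and iNKT2, and 21 and 30 in SKG, so the SKG levels rest on far fewer counts than the BALB/c levels.

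At an adjusted p under 0.01 (edgeR quasi-likelihood test over all 94823 regions), 427 members (63.0%) had a lower level called in SKG iNKT1 and 647 (95.4%) in iNKT2. Over all regions 1.42% were called lower and 0.662% higher in iNKT1, and 10.1% lower and 4.02% higher in iNKT2. Both calls were met by 421 members, against 0.847% of all regions, and both calls with a change of at least 4-fold by 162, against 0.308%. Since the same contrasts chose the members, nothing is read from these counts. The iNKT1 count rested on each of its 4 libraries and fell from 427 when any 1 of them was left out. Such fits keep 1 library in a group, and the median fitted log2 change of members in them was -2.04 to -1.81. The iNKT1 count was 152 with quantile normalization (voom) and 663 in a fit of the iNKT1 libraries alone. Those 2 fits called 0.399% and 4.19% of all regions lower.

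The choice of members was repeated without each library in turn, and the left-out library, which then had no part in it, was set against the mean of the other genotype, which did. Between 576 and 724 regions were chosen. Of these, 99% to 100% lay on the same side in the left-out library and 74.4% to 94.0% differed there by 2-fold or more. The median log2 ratio was -1.92 to -1.43 for left-out SKG libraries and 1.42 to 1.93 for left-out BALB/c libraries, while eligible regions had -0.175 to 0.129.

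Lower levels in both subsets were more frequent than higher ones by the same limits. The mirrored rule, with SKG at 2 or more times BALB/c in both subsets and the same limits set on the SKG levels, gave 105 regions. Among eligible regions, 1023 met the limit only in iNKT2 and 818 only in iNKT1. The 2 ratios of a member had a rank correlation of 0.354 over the 678 members, whose values share libraries and are cut at 0.5, and 80 members had both ratios at 0.25 or less. Just inside the limit were regions near Zfp608 (ratios 0.50 and 0.234 in iNKT1 and iNKT2), Zfp791 (0.162 and 0.50) and Mef2a (0.498 and 0.484). Just outside were regions near Atp2a3 (0.501 and 0.420), Iffo2 (0.409 and 0.501) and Ythdc1 (0.502 and 0.306).

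**Figure D2:**
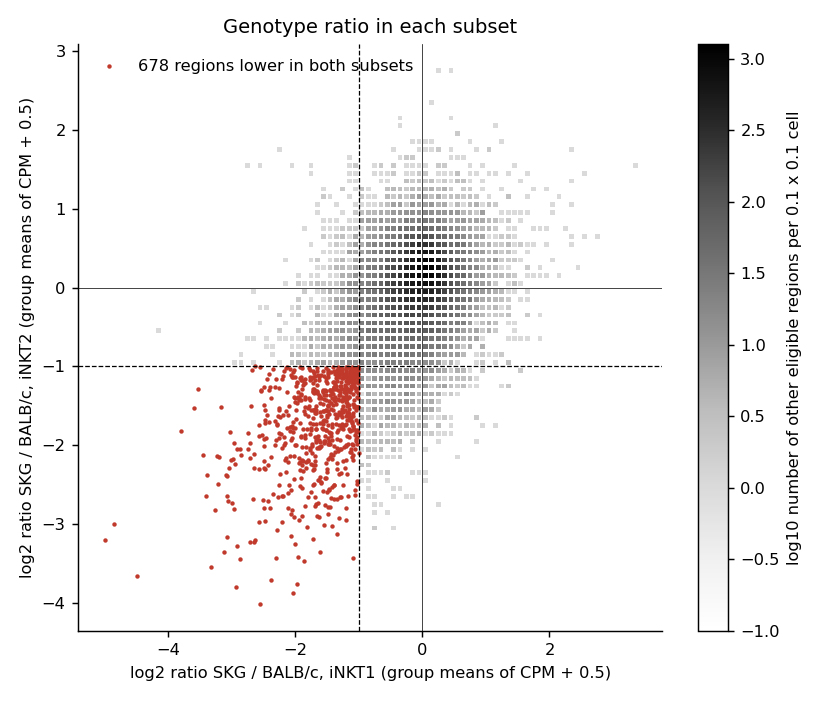
Each region's log2 ratio of SKG to BALB/c in iNKT1 (horizontal) and iNKT2 (vertical), from group means of CPM + 0.5. Red points are the 678 members, grey cells give the number of other eligible regions, and dashed lines mark the limit of 0.5. Members fill the lower left corner by construction and reach -4.99 in iNKT1 and -4.02 in iNKT2, while the other eligible regions centre near 0.

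In BALB/c mice the iNKT2 level exceeded the iNKT1 level in 394 members (58.1%), against 34.1% of eligible regions, and the subsets were within 2-fold in 476 (70.2%), against 83.3%. In BALB/c, 155 members were called higher and 107 lower in iNKT2 than in iNKT1 (edgeR adjusted p under 0.01), that is 22.9% and 15.8% of members, against 25.7% and 23.4% of all regions and 8.27% and 30.9% of eligible regions. In SKG the counts were 133 and 121, 19.6% and 17.8% of members, against 18.4% and 17.6% of all regions and 10.2% and 21% of eligible regions. The rule caps this ratio in BALB/c, so these are descriptions too. The genotype change itself was called different between the subsets (interaction) in 6 members, against 0.925% of all regions.

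The 8 members with the smallest ratios kept between 1 and 49 insertions in all libraries of a SKG subset together, and the region near Aipl1 kept the fewest. At chr11:71995924-71996270, in a region 41219 bp from the start of Aipl1 (a chaperone of photoreceptors), BALB/c iNKT1 had 12.8 and 9.92 CPM and SKG iNKT1 0 and 0.0642. In iNKT2 it had 6.43, 6.32 and 5.85 CPM in BALB/c and 0, 0.0918 and 0 in SKG. The SKG libraries thus held 1 insertion in iNKT1 and 2 in iNKT2. That was 0.276% of the BALB/c level in iNKT1 (exact 95% interval 0.00697% to 1.54%) and 0.456% in iNKT2 (0.0551% to 1.66%), intervals that cover counting error only. Counts of mapped insertions do not part closed chromatin from reads that failed to map, and the sequence of the SKG line in this region and in the next pair was not tested.

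A pair of neighbouring members lay 469064 and 469878 bp upstream of Fam19a5, which encodes a secreted chemokine-like protein. At chr15:87074495-87075235 the level was 19.3 and 17.6 CPM in BALB/c iNKT1 and 0 and 0.192 in SKG iNKT1. In iNKT2 it was 9.60, 6.24 and 7.13 CPM in BALB/c and 0.0297, 0.735 and 0.405 in SKG. The SKG level came to 0.517% of BALB/c in iNKT1 (exact 95% interval 0.106% to 1.52%) and 4.30% in iNKT2 (2.71% to 6.51%), so the remaining signal was in iNKT2. The surrounding stretch of chromosome 15, from 70 to 90 Mb, held 11 members among 699 eligible regions (1.57%). It also held 17 of the 105 regions that the mirrored rule, higher in SKG in both subsets, gave over all chromosomes.

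An intronic region of Atg10, chr13:91041127-91041606, whose nearest start is that of Rps23 at 118169 bp, lost a similar part of its level in both subsets. Its level was 7.44 and 6.44 CPM in BALB/c iNKT1, 0.450 and 0.257 in SKG iNKT1, 11.2, 7.51 and 8.82 in BALB/c iNKT2, and 0.475, 0.321 and 0.539 in SKG iNKT2. The fitted log2 change was -4.28 ± 0.373 (SE) in iNKT1 and -4.36 ± 0.273 in iNKT2, a difference smaller than either SE. The other members of the 8 smallest ratios lay near Zfp608, Bend4, Pitrm1 and Grxcr1, and in each of them every SKG library was below every BALB/c library.

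**Figure D3:**
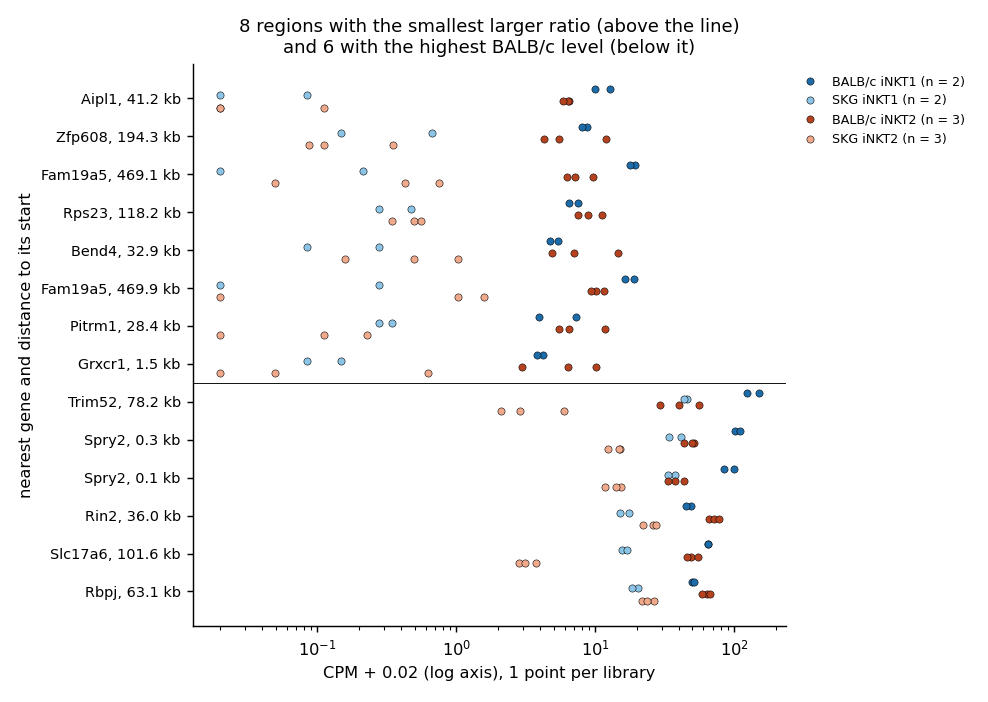
CPM plus a small constant (log axis) of 14 members in each library, 1 point per library, coloured by group and listed by nearest gene and distance to its start. The 8 regions above the line have the smallest larger ratio, with all SKG points under 2 CPM, and the 6 below it have the highest BALB/c levels and keep measurable signal in SKG.

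The members of highest BALB/c level were wide regions near Trim52, Spry2, Rin2, Slc17a6 and Rbpj, and since CPM are not divided by width, levels are compared here between libraries and not between regions. At chr14:106026683-106028037, 78161 bp upstream of Trim52, which encodes a ubiquitin ligase of the tripartite motif family, the level was 124 and 150 CPM in BALB/c iNKT1 and 45.5 and 43.3 in SKG iNKT1. In iNKT2 it was 56.0, 29.4 and 39.9 CPM in BALB/c and 5.94, 2.07 and 2.83 in SKG. The log2 change was -1.62 ± 0.318 in iNKT1 and -3.46 ± 0.299 in iNKT2, a difference not called by the interaction test. SKG iNKT1 still overlapped the BALB/c iNKT2 range.

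At chr7:51723652-51724385, 101646 bp from Slc17a6, a vesicular glutamate transporter gene, BALB/c iNKT1 had 64.5 and 64.7 CPM, SKG iNKT1 15.5 and 16.7, BALB/c iNKT2 48.9, 45.6 and 54.7, and SKG iNKT2 2.79, 3.08 and 3.71. The log2 change was -2.0 ± 0.158 in iNKT1 and -3.98 ± 0.147 in iNKT2. The residual level was therefore lower in SKG iNKT2 than in SKG iNKT1 in every library.

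Members lay away from gene starts. Of the 678, 300 were intergenic (44.2%, against 29.5% of eligible regions), 293 intronic (43.2% against 35.9%), 41 exonic and 21 in UTRs, and 23 (3.39%, against 24.8%) covered a protein-coding start. The median distance to the nearest start was 23699 bp, against 4241 bp for eligible regions, 25364 bp for regions lower only in iNKT2 and 16376 bp for those lower only in iNKT1. Median widths were close, 403.5 bp for members and 422 bp for eligible regions. These positions took no part in the choice, but no test was made over regions, which are not independent.

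**Figure D4:**
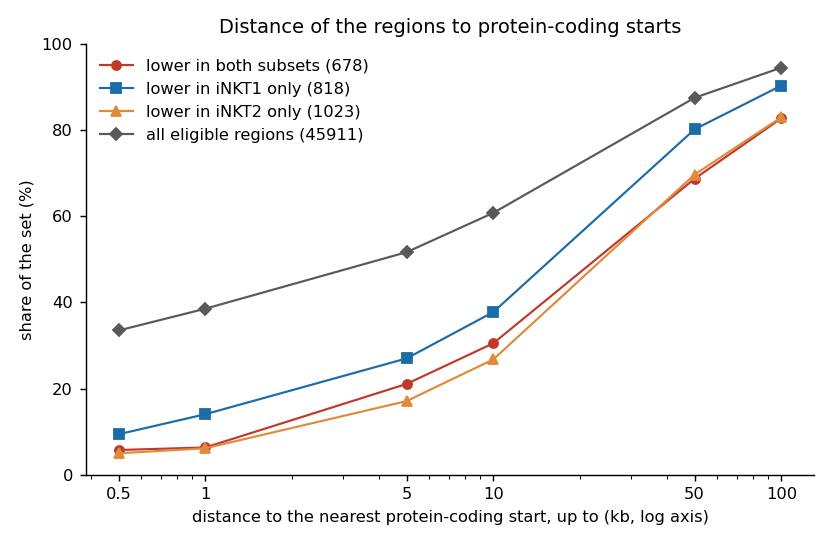
Share of regions (%) lying within a given distance (kb, log axis) of a protein-coding start, for members, regions lower in only 1 subset and all eligible regions. Within 1 kb lay 6.34% of members against 38.6% of eligible regions, and within 100 kb 82.7% against 94.5%.

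The 23 members at starts included 2 of Zfp536, a zinc finger repressor gene. The larger, chr7:37770065-37770941, had 11.9 and 11.8 CPM in BALB/c iNKT1, 1.73 and 1.73 in SKG iNKT1, 21.6, 22.8 and 26.2 in BALB/c iNKT2, and 3.00, 1.61 and 3.17 in SKG iNKT2. Starts of Izumo1r, which encodes folate receptor 4, of Rgs16, a regulator of G protein signalling, of Klf12, of Ptpn5 and of Tfe3 were also among them. Among genes with a member, 315 had an eligible start region that was no member. These start regions had a median log2 ratio of 0.03 in iNKT1 (quartiles -0.14 and 0.14) and 0.24 in iNKT2 (0.07 and 0.35). Starts that met the rule were left out of these values by definition. Over the 11374 eligible start regions that were no members the medians were 0.05 and 0.26.

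By nearest start the members fell to 482 genes, of which 106 had 2 or more, 39 had 3 or more and 14 had 5 or more. The nearest gene need not be the one a region acts on. Spry2, an inhibitor of Ras and MAP kinase signalling induced by receptor signals, had the most, with 12 of its 14 eligible regions, from 134 to 293537 bp from its start. Zfp536 and Zfp608 had 9 each, of 11 and 21 eligible, and Cwc27, Jag1 and Trim52 had 6 each, of 11, 9 and 7. Of genes with 5, Izumo1r had 11 eligible regions, Pdcd1, the gene of the inhibitory receptor PD-1, 11, and Ikzf2, the gene of Helios, 25.

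Members often lay near each other. Joined over gaps of up to 100 kb they formed 480 runs, of which 365 held 1 member, and 313 members (46.2%) were in runs of 2 or more. Another member lay within 10 kb of 25.5% of members, against 1.80% of the other eligible regions. The 813 other eligible regions within 10 kb of a member had median log2 ratios of -0.28 and -0.18 and both ratios below 1 in 53.5%, against 21.1% of all eligible regions that were no members.

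The longest run, chr14:105886585-106088885, joined Spry2 and Trim52 and held 11 members among 13 eligible regions. At its Spry2 end, the intronic region chr14:105894728-105896534, 285 bp from the start, had 100 and 110 CPM in BALB/c iNKT1, 41.1 and 33.6 in SKG iNKT1, 51.6, 43.2 and 49.9 in BALB/c iNKT2, and 15.1, 12.4 and 14.8 in SKG iNKT2 (log2 changes -1.50 ± 0.158 and -1.77 ± 0.133). The region chr14:105668977-105669410, 227409 bp from the Spry2 start, lay outside this run, in a separate run of 5 members at chr14:105602892-105733352. Its level fell from 4.18 and 3.31 to 0.514 and 0.321 CPM in iNKT1 and from 4.45, 4.97 and 6.23 to 0.267, 0.276 and 0.135 in iNKT2 (log2 changes -3.16 ± 0.386 and -4.41 ± 0.317). Both regions were lower in every SKG library. Neither was called by the interaction test between subsets, and the difference between the changes of the 2 regions was not tested. Between 100 and 110 Mb of chromosome 14 lay 33 members among 117 eligible regions (28.2%), the highest number of any 10-Mb window, with 11 among 373 in the next, on chromosome 8.

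Among fixed windows of 100 kb, 6 members each lay in chr13:104600001-104700000, where they were all 6 eligible regions, and in chr14:105800001-105900000, where 7 were eligible. In the first the nearest start, of the spliceosomal gene Cwc27, was 193397 to 209805 bp away and had ratios of 1.05 and 1.11. Its strongest fall, at chr13:104622422-104622857, was from 13.4 and 8.55 to 0.899 and 0.834 CPM in iNKT1 and from 30.8, 23.7 and 23.0 to 5.56, 3.58 and 4.45 in iNKT2. Windows at Pdcd1, Ugcg, Spire2 and Izumo1r followed with 5 each.

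The letters of distal members, those over 1 kb from a start, were compared with the 28211 distal eligible regions in windows of 150 bases to each side of the centre. The NFAT string was in 46.0% of 635 distal members (Wilson 95% interval 42.1% to 49.9%) and in 24.6% of eligible regions. The AP-1 string was in 22.5% (19.4% to 25.9%) against 12.6%, and the Egr string in 21.3% (18.3% to 24.6%) against 12.5%. NFAT and AP-1 strings within 20 bases of each other were in 2.99% against 0.567%, and at least 1 of the 3 strings in 71.3% against 42.6%. The intervals cover counting of regions only, and no test was made.

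For strings of other factors most shares were closer to those of eligible regions. Runx (TGTGGTT) was in 15.4% of members against 16.1%, Ets (CAGGAAG) in 24.9% against 28.1%, AGATAA, of GATA factors, in 18.4% against 15.3% and Sp/Klf (GGGGCGGGG) in 2.83% against 2.86%. The E-box CAGCTG was in 19.4% against 18.4%, the IRF string GAAANNGAA in 13.5% against 12.0%, Tcf/Lef (CTTTGAT) in 6.30% against 5.64%, T-box (AGGTGTGA) in 2.83% against 2.18% and Nr4a (AAAGGTCA) in 1.42% against 1.49%. CTCF (AGGGGGCGC) was in 0.157% against 1.38%, and NF-kB (GGANTTTCC, whose reverse strand holds the GGAAA of the NFAT core) in 0.787% against 1.55%. The NF-kB string was in 5.12% of the 703 distal regions lower only in iNKT1. For NFAT, regions lower only in iNKT2 (960 distal) had 36.5% and those only in iNKT1 36.4%, between the members and all eligible regions. The AP-1 string was in 15.1% of the regions lower only in iNKT2 and in 22.2% of those lower only in iNKT1, the latter close to the 22.5% of members. The Egr string was in 15.9% and 18.5%.

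Base composition was close, with a median GC content of 47.5% in distal members and 48.8% in distal eligible regions. In 3 classes of GC content, from low to high, NFAT was in 57.3%, 46.2% and 30.2% of members against 29.0%, 24.9% and 20% of eligible regions. AP-1 was in 22.0%, 23.1% and 22.5% against 13.9%, 13.2% and 10.8%, and Egr in 15.9%, 20.9% and 29.0% against 5.76%, 11.4% and 20.1%. The higher share in members thus held in each class for all 3 strings. With windows of 100 bases to each side the NFAT shares were 38.6% and 16.6%, and over whole regions 54.8% and 35.5%.

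**Figure D5:**
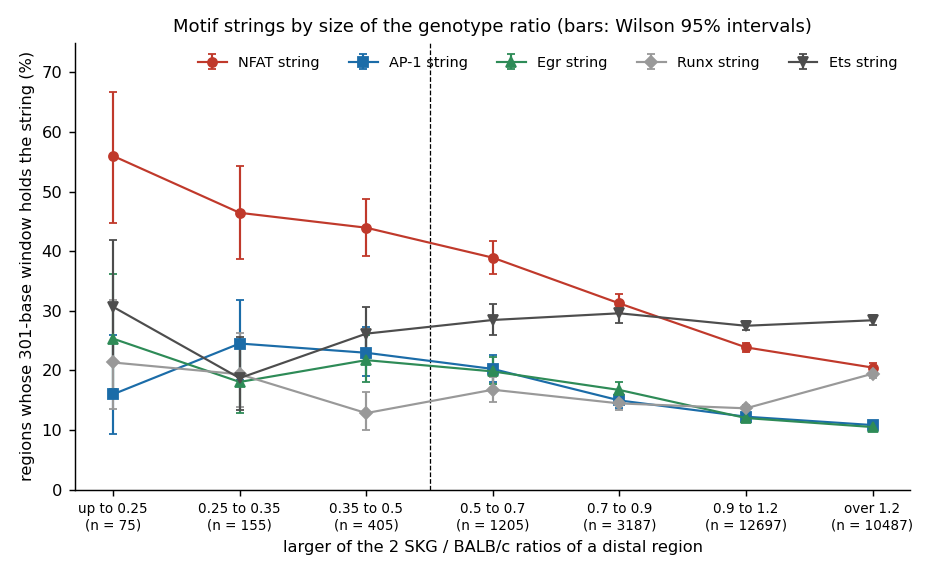
Share of distal eligible regions (%) whose window around the centre holds a string, by the larger of their SKG to BALB/c ratios, with Wilson 95% intervals as bars and members left of the dashed line. NFAT falls from 56.0% at ratios up to 0.25 to 20.5% above 1.2, AP-1 and Egr are at 10.8% and 10.5% above 1.2, and Runx and Ets show no such order.

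Seen along the ratio, the NFAT share was 56.0% of 75 distal members with both ratios at 0.25 or less, 46.5% of 155 up to 0.35 and 44.0% of 405 up to 0.5. Beyond the limit it was 38.9% of regions up to 0.7, 31.3% up to 0.9, 23.9% up to 1.2 and 20.5% above. AP-1 did not rise toward the smallest ratios, with 16.0%, 24.5% and 23.0% in the 3 classes of members, and Egr was in 25.3%, 18.1% and 21.7%.

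In 9 lists of genes of the TCR response, iNKT cell fate and survival, 34 of 159 genes had members, 66 in all. Shares of eligible regions that were members, 1.48% over all genes, were 14.3% for 10 Notch pathway genes (10 of 70), 12.3% for 16 MAP kinase feedback genes (19 of 154) and 6.25% for 14 inhibitory receptors and ligands (6 of 96). They were 3.36% for 28 TCR-induced factors (13 of 387), 2.72% for 13 survival and egress genes (4 of 147), 1.56% for 22 cytokine genes and their receptors (3 of 192) and 1.53% for 27 proximal TCR signalling genes (6 of 391). The lowest shares were 1.2% for 13 TNF receptor family and costimulatory genes (2 of 167) and 0.787% for 16 subset factors (3 of 381). The lists were chosen with earlier results of these data in view, so nothing is read from the shares. Single genes gave most members of the first 3 lists, with 6 of 10 at Jag1, 12 of 19 at Spry2 and 5 of 6 at Pdcd1.

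Of all regions of these lists, members or not, the shares called lower are given beside 1.42% of all regions in SKG iNKT1 and 10.1% in SKG iNKT2 (edgeR adjusted p under 0.01), and those called higher beside 0.662% and 4.02%. The TCR-induced factors had 27 of 717 regions called lower (3.77%) and 0 higher in iNKT1, and 101 lower (14.1%) and 35 higher in iNKT2. The MAP kinase feedback genes had 24 of 265 lower (9.06%) and 4 higher in iNKT1, and 39 (14.7%) and 18 in iNKT2. The Notch list had 15 of 164 lower (9.15%) and 0 higher in iNKT1, and 50 (30.5%) and 5 in iNKT2, and the inhibitory list 19 of 194 (9.79%) and 1, and 31 (16.0%) and 6. In the other lists the share called lower in iNKT2 was below that of all regions. The proximal TCR genes had 11 of 713 lower (1.54%) and 1 higher in iNKT1, and 48 (6.73%) and 28 in iNKT2, and the subset factors 4 of 759 (0.527%) and 1, and 59 (7.77%) and 38. Cytokine genes had 12 of 396 lower (3.03%) and 3 higher, and 23 (5.81%) and 54, the TNF receptor family 5 of 327 (1.53%) and 1, and 17 (5.2%) and 28, and survival and egress genes 7 of 290 (2.41%) and 5, and 15 (5.17%) and 32. Eligible regions alone had 2.01% called lower and 0.44% higher in iNKT1, and 5.67% and 5.77% in iNKT2. The study had named several of these genes, such as Jag1, Rbpj, Spry2, Dusp6, Pdcd1 and Egr2, from the same libraries. The shares of such lists were partly set by the choice of genes, and nothing is read from them. No test was made between lists.

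Of the factors induced by TCR signals, Egr2, Nfatc1, Myc and Nfkb1 had 1 member each, Tox 3, Ikzf2 5 and Rcan1 1. At chr10:67483303-67483873, 51602 bp upstream of Egr2, the level was 18.6 and 15.6 CPM in BALB/c iNKT1, 5.20 and 6.67 in SKG iNKT1, 8.19, 5.24 and 6.56 in BALB/c iNKT2, and 0.624, 0.184 and 0.809 in SKG iNKT2. The log2 change was -1.53 ± 0.302 in iNKT1 and -3.65 ± 0.323 in iNKT2, a difference not called by the interaction test. BALB/c iNKT1 was thus the highest group, and SKG iNKT1 overlapped BALB/c iNKT2.

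Tox encodes a factor tied to sustained TCR signals, and its intronic region chr4:6882663-6883084 had 3.49 and 3.13 CPM in BALB/c iNKT1 against 0.707 and 0.321 in SKG, and 8.85, 2.86 and 5.32 in BALB/c iNKT2 against 0.743, 0.551 and 0.674. In Rcan1, an inhibitor of calcineurin that NFAT induces, the intronic region chr16:92443603-92444028 had 12.6 and 9.12 CPM against 2.31 and 2.44 in iNKT1, and 8.59, 3.73 and 6.56 against 1.28, 0.643 and 1.69 in iNKT2. BALB/c iNKT2 replicate 1 was the highest of its group at both, and the genotypes did not overlap in either subset.

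Of the inhibitors of MAP kinases, Dusp6, the phosphatase of ERK, had 4 members, and Dusp1, Dusp5 and Spred2 had 1 each besides the 12 at Spry2. At chr10:99287057-99287610, 23826 bp downstream of the Dusp6 start, levels were 3.76 and 2.73 CPM in BALB/c iNKT1 and 0.578 and 0.385 in SKG, and 4.70, 7.75 and 5.98 in BALB/c iNKT2 and 0.773, 0.781 and 1.21 in SKG. The log2 changes were -2.75 ± 0.412 and -2.78 ± 0.281, so the subsets differed by less than the SE.

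Among Notch pathway genes, the ligand gene Jag1 had 6 members, Rbpj, the DNA-binding partner of Notch, 2, and Hes1, a target of Notch, and Ovol2 1 each. At chr2:137236243-137237317, 119599 bp upstream of Jag1, levels were 10.5 and 13.8 CPM in BALB/c iNKT1, 2.57 and 1.28 in SKG iNKT1, 19.4, 26.2 and 23.8 in BALB/c iNKT2, and 0.773, 1.06 and 2.09 in SKG iNKT2 (log2 changes -2.65 ± 0.358 and -4.26 ± 0.301). The interaction test did not call the changes of this Jag1 member different between the subsets. The Jag1 start region was no member, with ratios of 0.443 and 0.618. At chr5:53402078-53403074, 63078 bp upstream of Rbpj, levels were 49.4 and 51.7 against 20.3 and 18.2 CPM in iNKT1, and 63.3, 67.2 and 58.4 against 26.2, 21.5 and 23.7 in iNKT2 (-1.39 ± 0.15 and -1.40 ± 0.120).

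At Hes1 the member chr16:30024652-30025013, 40327 bp upstream, had 14.0 and 14.4 CPM in BALB/c iNKT1 against 4.37 and 4.94 in SKG, and 8.31, 6.45 and 9.03 in BALB/c iNKT2 against 2.20, 1.88 and 1.62. At Ovol2 the member chr2:144343079-144343555, 10933 bp upstream, had 6.33 and 4.58 against 0.257 and 0.321 in iNKT1 and 20.2, 13.1 and 15.4 against 3.66, 2.99 and 4.05 in iNKT2. The genotypes did not overlap in either gene, and at Ovol2, a zinc finger gene, the log2 change was -4.22 ± 0.398 in iNKT1 and -2.19 ± 0.210 in iNKT2, a difference not called by the interaction test.

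Genes that carry or restrain the proximal TCR signal had 1 member each at Cd247, the CD3 zeta chain, Prkcq, protein kinase C theta, Ubash3b, a phosphatase that acts on Zap70, Cblb, a ubiquitin ligase, Ptpn22 and Sh2d2a. In the Ubash3b intron, chr9:41143826-41144458 had 9.74 and 7.23 CPM in BALB/c iNKT1 against 1.61 and 2.95 in SKG, and 16.4, 15.2 and 18.6 in BALB/c iNKT2 against 4.72, 3.17 and 2.36. At Prkcq, chr2:11319778-11320605, 92910 bp from the start, levels were 16.1 and 15.5 against 4.37 and 4.55, and 32.6, 32.2 and 31.4 against 11.4, 8.36 and 9.71. In both genes BALB/c iNKT2 was the highest group.

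Of genes of the effector and subset programmes, Ifng, Il10 and Tgfbr2 had 1 member each, as had the lineage factors Runx1, Runx3 and Lef1 and the costimulatory genes Tnfrsf9 and Cd40lg. At Ifng the member chr10:118588021-118588619 lay 146975 bp from the start and had 6.0 and 8.73 CPM in BALB/c iNKT1 against 2.12 and 1.54 in SKG, and 6.37, 3.47 and 5.03 in BALB/c iNKT2 against 1.81, 0.781 and 1.48. Among survival and egress genes, Cxcr4 had 3 and Bcl2l11, which encodes the death factor BIM, had 1. The latter, chr2:128087014-128087341 in an intron of Acoxl, had 4.99 and 4.72 against 0.450 and 0.192 CPM in iNKT1. In iNKT2 it had 5.61, 3.25 and 3.38 against 0.654, 0.735 and 0.607 CPM. The log2 changes were -3.90 ± 0.439 and -2.60 ± 0.30, a difference not called by the interaction test.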

How the data were processed

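ATAC-seq insertion counts were analysed for 10 libraries of sorted thymic iNKT cells, grouped by library name. According to the methods and the submitters' processing notes, the authors mapped reads to mm10 (Bowtie 1.0), discarded duplicates and mitochondrial reads, called summits (MACS2), merged these over all libraries and counted insertions in each merged region. The deposited table held whole-number counts for 94823 regions of 300 to 7709 bp that were not normalized, although its name speaks of normalized counts, and the totals (14988590 to 36342635) are insertions inside regions and not full depth. At this depth a BALB/c library held at least 24 insertions in every member.

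Counts were scaled to CPM with edgeR 4.0.16 TMM factors in R 4.3.3, and a quasi-likelihood fit of all 10 libraries gave each group its own mean, with Benjamini-Hochberg adjustment over all regions. The SE of a fitted log2 change was its absolute value divided by the square root of its F statistic. The fit was tested on simulated data. Genes, starts and features came from GENCODE M21 and sequences from GRCm38, 1-based, with each region given to its nearest protein-coding start. Motif windows took 150 bases to each side of the centre, and shares have Wilson intervals. Named members were the 8 of smallest larger ratio, the 6 of highest BALB/c level, the best member of each list gene described, the genes with most members, the regions nearest the limit of 0.5, the fullest 100 kb windows and Zap70. Jade1, Crybb2, Lrrn1 and Pcnx were named after their values were seen, as were the 10-Mb windows, the regions at starts and the stretch of chromosome 15. The members, gene lists and strings were chosen with earlier results of these data known.

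Pairing by replicate number was checked from deviations from the group mean over regions. Same-numbered BALB/c and SKG iNKT2 libraries gave r = 0.492, 0.165 and 0.202, and differently numbered ones up to 0.278, so a replicate block, with same numbers as pairs, was an alternative. The 2 pairs of iNKT1 gave -0.00599 and were not taken as pairs. With the block 678 members were called lower in iNKT2. The other alternatives were DESeq2 1.42.0, voom with quantile normalization (limma 3.58.1), other scalings, constants, limits and filters, fits of 1 subset, and the omission of each library.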

Additional observations from a re-analysis of the deposited data

Results flagged for a closer look

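In 6 members the genotype change differed between the subsets at an adjusted p under 0.01 (edgeR interaction test over all regions). The rule bounded both changes, so these values are given with no weight on their number. The fall was larger in iNKT2 at Slc17a6 (chr7:51723652-51724385), where the iNKT2 change minus the iNKT1 change was -1.98 ± 0.210 (SE) on the log2 scale (edgeR adjusted p 4.2e-04). It was also larger in iNKT2 near Trim52 (chr14:106088247-106088885), at -2.59 ± 0.438 (edgeR adjusted p 0.00504), near Lrrn1, at -2.31 ± 0.425 (edgeR adjusted p 0.00811), and near Pcnx, at -1.69 ± 0.311 (edgeR adjusted p 0.00835). In these 4 members every SKG iNKT2 library lay below every SKG iNKT1 library. The interaction test on the same libraries picked them, and no share over all regions was taken. Nothing is read from this order.

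The fall was larger in iNKT1 near Jade1 and Crybb2. At the Jade1 member, 146916 bp upstream, the difference was 1.94 ± 0.324 (edgeR adjusted p 0.00488), with 18.8 and 20.7 CPM in BALB/c and 1.09 and 2.44 in SKG iNKT1 against 34.0, 34.8 and 42.5 in BALB/c and 14.1, 11.2 and 12.7 in SKG iNKT2. At the Crybb2 member it was 2.71 ± 0.473 (edgeR adjusted p 0.00602), with 15.1 and 14.6 CPM in BALB/c and 0.899 and 0.770 in SKG iNKT1 against 12.4, 10.2 and 10.2 in BALB/c and 3.00, 2.94 and 6.67 in SKG iNKT2, where replicate 3 was the highest.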

How the results depend on the processing

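The number of members was 294 with a constant of 2 CPM, 80 at a ratio limit of 0.25, 1192 at a limit of 0.6 and 363 at a minimum of 4 CPM, and it ran from 576 to 724 when each library was left out. Library totals gave 735, of which 620 were members, and quantile normalization 505, of which 482 were. Calls in iNKT1 were 152 with quantile normalization (voom), 663 in a fit of the iNKT1 libraries, 265 with the 4-fold limit, and 103 to 530 when each library was left out. In fits that left 1 library in a group, that library was assumed to vary like the others. Calls in iNKT2 were 570 to 657 when each iNKT2 library was left out, in fits that called 6.82% to 10.5% of all regions lower. With the 4-fold limit 265 members were called in iNKT1 and 316 in iNKT2, counts that have no share of all regions beside them, so nothing is read from them. Both of these calls were met by 162, against 0.308% of all regions. DESeq2 called 510 in iNKT1 and 655 in iNKT2. The median iNKT1 log2 ratio was -1.30 under quantile normalization and -1.65 to -1.49 when each library was left out. The cause of these shifts was not tested.

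With the replicate block, 678 members were called in iNKT1, where the numbers do not pair libraries, and 678 in iNKT2, in fits that called 5.47% and 14.9% of all regions lower. Part of the 48 members named by the rule lost the iNKT1 call when each iNKT1 library was left out. None of the 48 changed direction under the alternatives run for them. These alternatives refit the counts that chose the members, so nothing is read from the unchanged direction. Without BALB/c iNKT2 replicate 1, 1 of the 678 members had a fitted iNKT2 change above 0. The SKG iNKT1 levels rest on a median of 21 insertions per member and library, which limits how closely small ratios can be told apart.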
